A study of Mus musculus with 4 samples.

Results

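Aminoacyl-tRNA synthetases, the enzymes that join each amino acid to its transfer RNA (tRNA), were examined in group 2 innate lymphoid cells (ILC2s) sorted from the lungs of C57BL/6 mice. The set comprised 39 genes of the 38697 in the table, found by gene name: 20 cytosolic enzymes, 16 mitochondrial enzymes and 3 scaffold proteins. ILC2s are tissue-resident lymphocytes that make type 2 cytokines. Bleomycin, which damages lung tissue, had been given to every mouse. Wild type (WT) mice were R5/+ and knockout (KO) mice R5/+Nrp1f/f. The R5 allele, present in both genotypes, places a reporter and Cre recombinase under the control of Il5. Recombination of floxed Nrp1, which encodes the co-receptor neuropilin-1, is therefore limited to cells that have used the Il5 locus. Each genotype had 2 samples, 4 in all, and each sample combined 3 to 4 mice. The labels used here give no age and do not say whether samples shared a day or litter, so p-values measure the spread between these pools. The set was chosen because Eprs was lower in KO. Its values, and those of the other members from the same comparison, are thus given as a description, with the authors' adjusted p quoted. Under alternative settings, p-values were recomputed or adjusted again from the same estimates, and they are description too.

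Each synthetase recognises 1 amino acid and the tRNAs that carry it, and the charged tRNA then delivers the amino acid to the ribosome. Cytosolic enzymes serve translation of nuclear-encoded messages, while a separate set, also encoded in the nucleus, is imported into mitochondria to translate the mitochondrial genome. In the names used here, the mitochondrial forms end in 2. Gars and Kars each encode both forms, and Eprs encodes a fused enzyme for glutamate and proline. Several cytosolic enzymes, Eprs among them, are held in the multisynthetase complex by the scaffold proteins Aimp1, Aimp2 and Eef1e1. Uncharged tRNA activates the kinase GCN2 (Eif2ak4), whose signal raises the transcription factor ATF4, and ATF4 with a C/EBP partner binds composite elements near the starts of target genes.

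The letters of that element were looked for in the members' promoters, since several synthetase genes are known targets of ATF4. RefSeq promoters (GRCm38.p6, 250 bases before to 50 bases after the start) were matched for 30 of the 39 genes, with 32 records. The letters TGATGNAAN, read on both strands, were found in 5 of 13 promoters of cytosolic enzymes, in 0 of 15 of mitochondrial enzymes and in 0 of 4 of scaffolds. Among all 32851 promoters of this length, 3.95% held them. The cyclic AMP element TGACGTCA was in 0 of the 32 members' promoters and in 1.79% of all promoters. Matches of 4 of the 5 genes are shown because the element's letters were found in promoters of cytosolic enzymes and in none of the mitochondrial or scaffold records. Capitals mark the 9 matched letters, written on the strand of the gene, with 10 bases on each side.

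Gars, 31 bases before the start: tggctgcgctATTTCATCAtgcaccgggc
Iars, 6 bases after the start: cactgtcagtATTGCATCAcctccagacg
Tars, 16 bases before the start: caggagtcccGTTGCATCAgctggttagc
Yars, 3 bases after the start: cgagctcagcTGATGCAACccgacgggac

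The windows lie at chr6:55037751-55038050 for Gars, chr13:49681880-49682179 for Iars, chr15:11399609-11399908 for Tars (minus strand) and chr4:129189653-129189952 for Yars. A match is a run of letters and not a measured binding site. Eprs was among the 8 cytosolic enzymes with a promoter record and no match. The 5 genes with a match had a median log2 fold change of -0.22 in KO (range -0.48 to -0.16) and the 8 without one had -0.31 (range -0.81 to -0.26).

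Expression values come from a comparison of KO with WT that the authors made. Its baseMean column averages a gene's normalized counts over libraries, and the log2 fold change is given here as KO minus WT with its standard error (SE). The table's name puts WT first, and the sign was read from that order; the opposite reading would turn every direction. With the order as read, the authors' deposited table lists Nrp1, the targeted gene, at -1.18 ± 0.21 (adjusted p = 1.27e-04). The columns of single libraries could not be tied to samples, so no value per pool, no check of replicate agreement and no depth per library is given. An adjusted p is given for 19193 genes in the authors' deposited table. Of these, 0.099% were called lower and 0.453% higher in KO at an adjusted p under 0.05. Fold changes followed abundance: the median log2 value was 1.41 for genes with a baseMean under 50 and -0.25 for the 2480 genes with at least 1000. Each member is therefore also set beside the median of genes of like baseMean, the window of tested genes that reaches 250 genes to each side of it.

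Across the 39 genes, 37 had a log2 value below 0 (25 when values were centred on abundant genes) and 2 above, with a median of -0.29, against 46% below 0 and a median of 0.076 over all genes tested. All 39 had an adjusted p. Eprs alone, 1 of 39, was called lower in KO and 0 were called higher in the authors' deposited table. At an unadjusted p under 0.05 the authors' deposited table has 4 members lower, namely Eprs, Vars, Tars and Iars2, and 0 higher, against 3.95% and 9.62% of all genes tested. The shares over all genes vary with abundance. For genes with a baseMean from 200 to 1000, 77.4% were below 0 and 4.21% lower at that p. For genes of at least 5000, the shares were 89.9% and 34.2%. Since the set was chosen from this comparison, nothing is read from these shares. Next to genes of like baseMean, 30 of the 39 lay below and 27 lay within 1 SE, and all but Eprs lay within 2 SE.

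**Figure D1:**
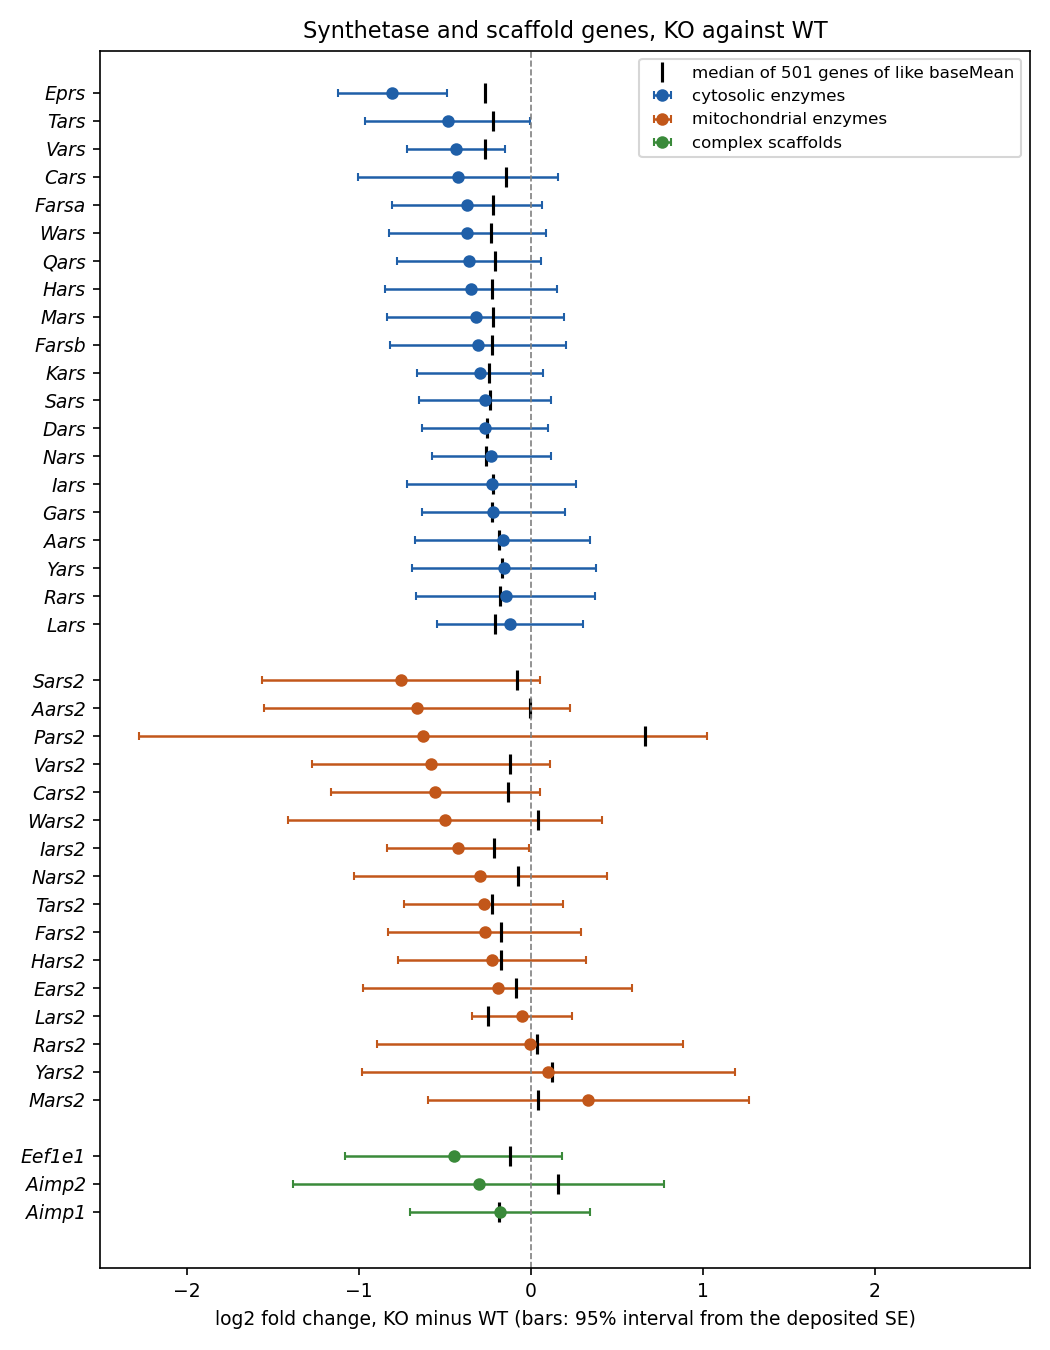
Log2 fold change (x axis, KO minus WT) of the 39 genes by class, with 95% intervals from the deposited standard errors and, as black ticks, the median of genes of like baseMean. Eprs is the 1 member whose interval does not reach its tick, and the intervals of 35 members include 0.

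Eprs (ENSMUSG00000026615, chr1:185363044-185428360, mm10, plus strand) was the most abundant cytosolic enzyme by count. The authors' deposited table puts its baseMean at 13686, and 115 tested genes had a higher one. From baseMean and the fold change, its mean normalized counts are 17409 in WT and 9963 in KO. The authors' deposited table gives a log2 fold change of -0.81 ± 0.16 and an adjusted p of 0.00152. This is a KO to WT ratio of 0.572 (95% interval 0.459 to 0.713 from the deposited SE). Against genes of like baseMean the difference was -0.54, or -3.35 in units of its SE. Centred on abundant genes, Eprs stood at -0.55 with an adjusted p of 0.0509, so the call ends in that setting.

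The other 19 cytosolic enzymes all had log2 values below 0, from -0.48 to -0.12, with a median of -0.29, although of the full 20 only 13 stayed below 0 when centred on abundant genes. None was called, and the authors' deposited table has their adjusted p between 0.125 and 0.857. The valine enzyme Vars, second to Eprs in count, stood at -0.43 ± 0.15 (baseMean 7100, adjusted p = 0.125) in the authors' deposited table. Its implied means were 8157 in WT and 6044 in KO. For the threonine enzyme Tars the authors' deposited table gives -0.48 ± 0.25 and for the cysteine enzyme Cars -0.42 ± 0.30. The 2 chains of the phenylalanine enzyme lay close together, Farsa at -0.37 ± 0.22 and Farsb at -0.31 ± 0.26 in the authors' deposited table. At the other end of the order, the leucine enzyme Lars stood at -0.12 ± 0.22, the arginine enzyme Rars at -0.15 ± 0.27, the tyrosine enzyme Yars at -0.16 ± 0.27 and the alanine enzyme Aars at -0.16 ± 0.26 in the authors' deposited table. These neighbours do not differ beyond their errors. The remaining enzymes in the authors' deposited table ran from Wars (tryptophan) at -0.37 ± 0.23, Qars (glutamine) at -0.36 ± 0.21, Hars (histidine) at -0.35 ± 0.26 and Mars (methionine) at -0.32 ± 0.26 to Kars (lysine) at -0.29 ± 0.19, Sars (serine) at -0.27 ± 0.20, Dars (aspartate) at -0.26 ± 0.19, Nars (asparagine) at -0.23 ± 0.18, Iars (isoleucine) at -0.23 ± 0.25 and Gars (glycine) at -0.22 ± 0.21. Of the 20 cytosolic enzymes, 17 lay within 1 SE of genes of like baseMean.

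Synthetases fall into 2 structural classes with unrelated catalytic folds, and Eprs joins a class I and a class II enzyme. The 9 other class I cytosolic genes had a median of -0.32 and the 10 class II genes -0.28, with the class median SE at 0.25 and 0.22. Membership of the multisynthetase complex made a gap of similar size. Its 8 enzymes had a median of -0.28, and the 7 without Eprs -0.26, against -0.33 for the 12 cytosolic enzymes outside it. These gaps between medians were smaller than the median SE of the genes in any of the groups compared. That SE is of single genes and does not measure the error of a median, and differences between the groups were not tested. Among the scaffolds, the authors' deposited table gives Aimp1 at -0.18 ± 0.27, Aimp2 at -0.30 ± 0.55 and Eef1e1 at -0.45 ± 0.32, none with an adjusted p under 0.566. The 95% intervals of Aimp2 and Eef1e1 include the value of Eprs, and differences from Eprs were not tested.

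The mitochondrial enzymes had a median of -0.28, next to -0.30 for the cytosolic ones, with 14 of 16 below 0, or 10 of 16 when centred on abundant genes. None was called, and adjusted p ran from 0.350 to 0.998 in the authors' deposited table. Their values were spread more widely, from -0.75 to 0.34, and were less precise. The median SE was 0.39 against 0.23, so a typical 95% interval reached 0.76 to each side for a mitochondrial enzyme and 0.45 for a cytosolic one. Median baseMean was 208 against 797. Genes of like baseMean had a median of -0.081 for the mitochondrial and -0.22 for the cytosolic enzymes. Relative to such genes, 14 of 16 mitochondrial and 14 of 20 cytosolic enzymes lay below, with median gaps of -0.16 and -0.067.

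**Figure D2:**
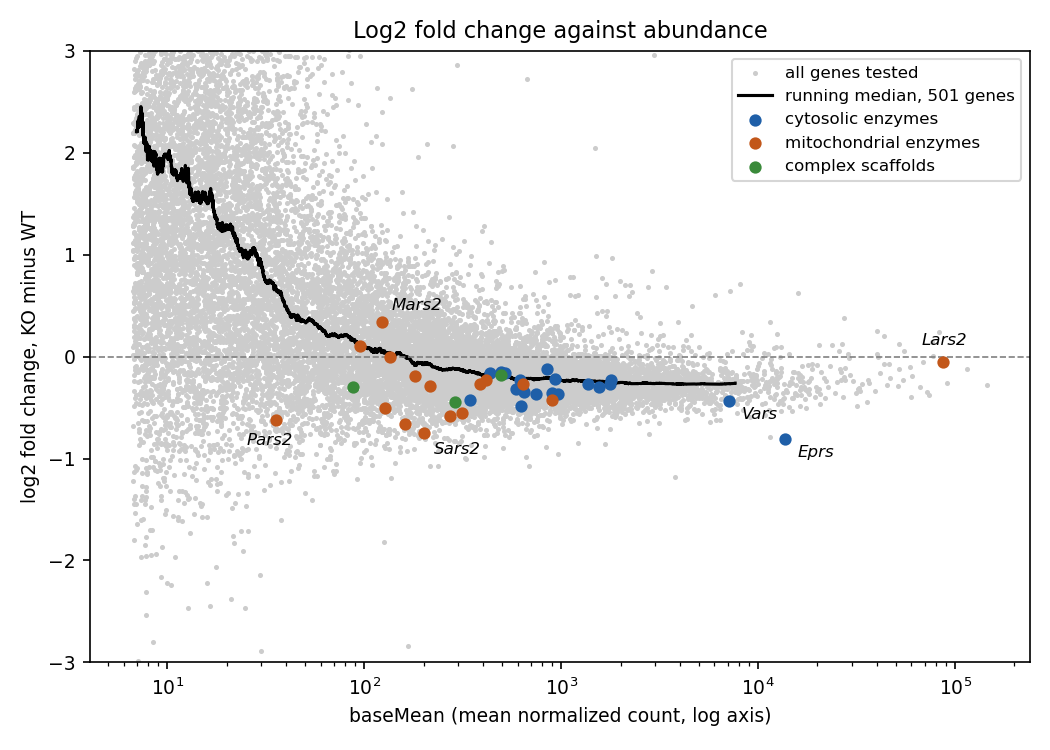
Log2 fold change (y axis, KO minus WT) against baseMean (x axis, log scale) for all genes tested in grey, their running median in black, and the 39 members in colour. Eprs differs by -0.54 from genes of its abundance, and 27 of the 39 members lie within 1 SE of such genes; 1745 genes beyond a log2 value of 3 in either direction are not drawn.

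The lowest mitochondrial values belonged to the serine enzyme Sars2, at -0.75 ± 0.41 (adjusted p = 0.412), and the alanine enzyme Aars2, at -0.66 ± 0.45 (0.543), in the authors' deposited table. The implied mean normalized counts of Sars2 were 252 in WT and 150 in KO, and those of Aars2 198 and 125. Pars2, the proline enzyme and the least abundant member at a baseMean of 35.5, stood at -0.63 ± 0.84 in the authors' deposited table. The valine enzyme Vars2 (-0.58 ± 0.35), the cysteine enzyme Cars2 (-0.55 ± 0.31) and the tryptophan enzyme Wars2 (-0.50 ± 0.47) followed in the authors' deposited table. Iars2, for isoleucine, was at -0.42 ± 0.21 (unadjusted p = 0.0447, adjusted p = 0.350) in the authors' deposited table. A middle group in the authors' deposited table held Nars2 (asparagine, -0.29 ± 0.38), Tars2 (threonine, -0.27 ± 0.24), Fars2 (phenylalanine, -0.27 ± 0.29), Hars2 (histidine, -0.23 ± 0.28) and Ears2 (glutamate, -0.19 ± 0.40). Rars2, for arginine, was at -0.0034 ± 0.45, and the members above 0 were Yars2 (tyrosine, 0.10 ± 0.55) and Mars2 (methionine, 0.34 ± 0.48) in the authors' deposited table. With errors of this size, the order within the class is not resolved.

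Enzymes for the same amino acid were also set side by side. In 7 of 16 pairs the mitochondrial member was the lower one, and in 13 of 16 the gap was smaller than the combined SE of the pair. That SE treats the genes as independent although they come from the same libraries. The gaps beyond it were those of Mars2 minus Mars (0.66, combined SE 0.54), Ears2 minus Eprs (0.61, 0.43) and Sars2 minus Sars (-0.49, 0.46). Eprs charges both glutamate and proline in the cytosol, and Pars2 minus Eprs was 0.18 with a combined SE of 0.86.

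**Figure D3:**
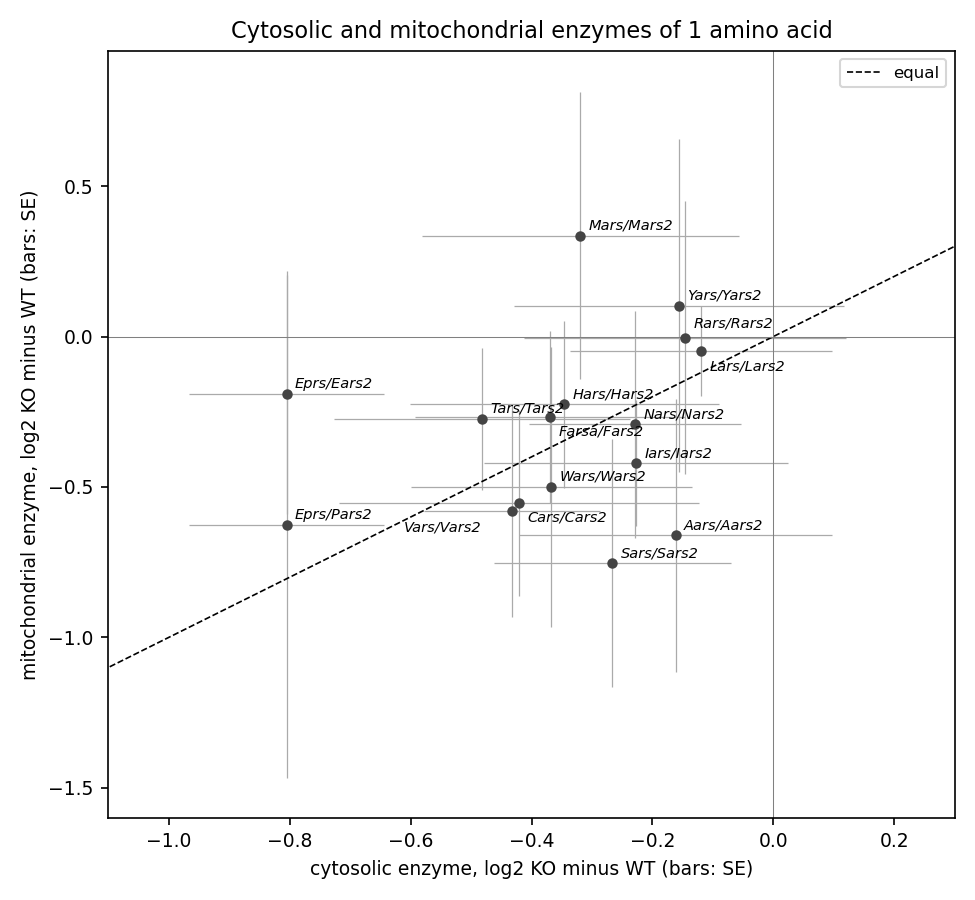
Log2 fold change (KO minus WT) of the mitochondrial enzyme (y axis) against the cytosolic enzyme (x axis) for 16 pairs, with bars of 1 SE and a dashed line of equality. Points fall on both sides of the line, 7 of 16 below it, and Eprs is set apart along the x axis.

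Levels between genes were compared as baseMean per kb of annotated exons (GENCODE M21, mm10), both genotypes together. Cytosolic enzymes had a median of 207 normalized counts per kb, from 52.6 for Cars to 1266 for Vars, with Eprs at 756. Mitochondrial enzymes had a median of 46.0, from 10.8 for Mars2 upward, which puts the cytosolic median 4.49 times higher. The cytosolic gene had the higher level per kb in 15 of 16 pairs, and in 12 of 16 when coding length was used. The exception on exon length was leucine. Eprs stood 4.39 times above the median of the other cytosolic enzymes per kb of exons and 7.82 times per kb of coding length, where it passed Vars.

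Lars2, the mitochondrial leucine enzyme, stood apart from its class. The authors' deposited table lists it at a baseMean of 86372, rank 4 among all genes, and its level of 7789 per kb compares with 101 for Iars2, the next mitochondrial enzyme. Of 9 annotated Lars2 transcripts, 2 share a stretch of 72 bases, 98.6% identical, with Gm15564, an antisense transcript on chromosome 16. Gm15564 had a baseMean of 8416 and stood at 0.025 ± 0.15 in the authors' deposited table. Whether reads were assigned between them was not tested. Among ribosomal RNA genes, Rn18s-rs5 had a baseMean of 45018 and mt-Rnr2 one of 40754. Whether reads of other origin add to the Lars2 count was not tested. Lars2 did not move with genotype beyond its error, at -0.049 ± 0.15 (adjusted p = 0.924) per the authors' deposited table. Without Lars2 the mitochondrial median was -0.29, and the cytosolic median level was 4.78 times the mitochondrial one.

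**Figure D4:**
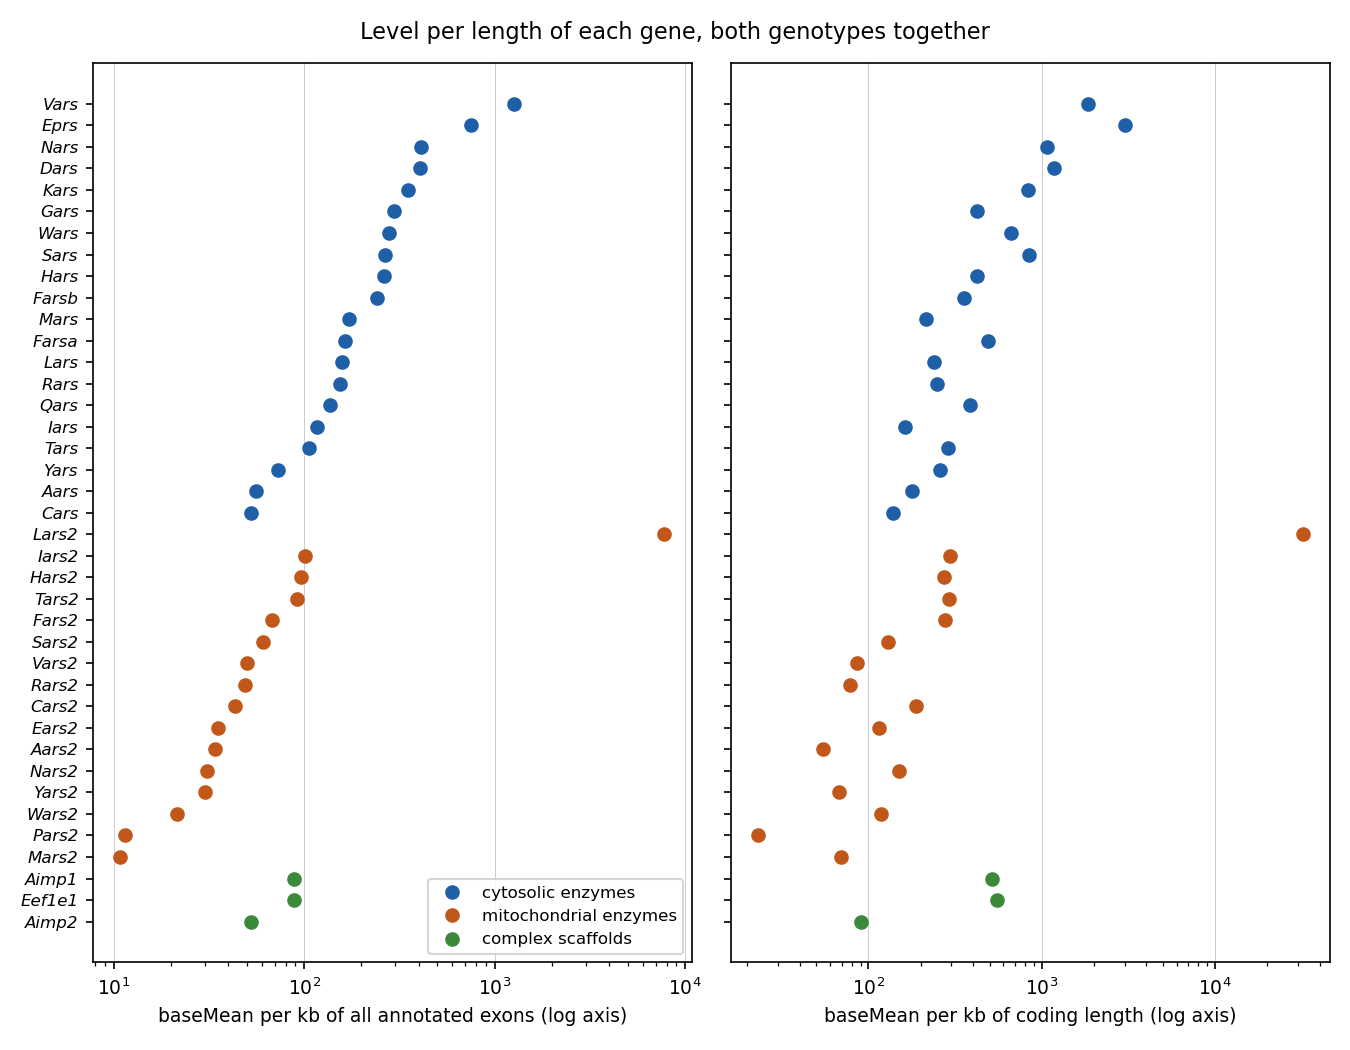
BaseMean per kb of annotated exons (left) and of coding length (right), both on log axes, for the 39 genes by class. Lars2, at 7789 per kb of exons, stands above every other member, and the next mitochondrial enzyme is Iars2 at 101. The origin of the reads counted for Lars2 was not tested.

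Eprs and Iars2 lie on the same stretch of chromosome 1, separated by Bpnt1, which encodes a bisphosphate nucleotidase. Bpnt1 starts 2753 bases from the start of Iars2, on the opposite strand, and ends 5267 bases before Eprs starts on the same strand. The authors' deposited table gives Bpnt1 at -0.85 ± 0.21 (baseMean 1661, adjusted p = 0.0299), with implied means of 2138 in WT and 1184 in KO. Of the 9 genes within 500 kb of the start of Eprs that have an adjusted p, Eprs and Bpnt1 were the 2 past the threshold. The region was chosen for Eprs, so its call was fixed by that choice and 1 other call, Bpnt1, remains. Of all genes tested, 0.552% passed. Centred on abundant genes, neither Eprs nor Bpnt1 passed, with Bpnt1 at -0.60 and an adjusted p of 0.119. The noncoding gene 4930532G15Rik, whose start is 179 bases from that of Eprs on the other strand, stood at -0.10 ± 0.48 (baseMean 150) in the authors' deposited table. Beyond Iars2, Rab3gap2 was at -0.13 ± 0.23 (adjusted p = 0.858) per the authors' deposited table. Iars2 and Rab3gap2 overlap by 2034 bases at their ends, and 22.0% of the 50-base words of Iars2 transcripts also occur in Rab3gap2 on the opposite strand. Strand use in the counting is not given in the sources used here, so reads there cannot be told apart. Eprs shared 0.736% of its words with other genes.

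**Figure D5:**
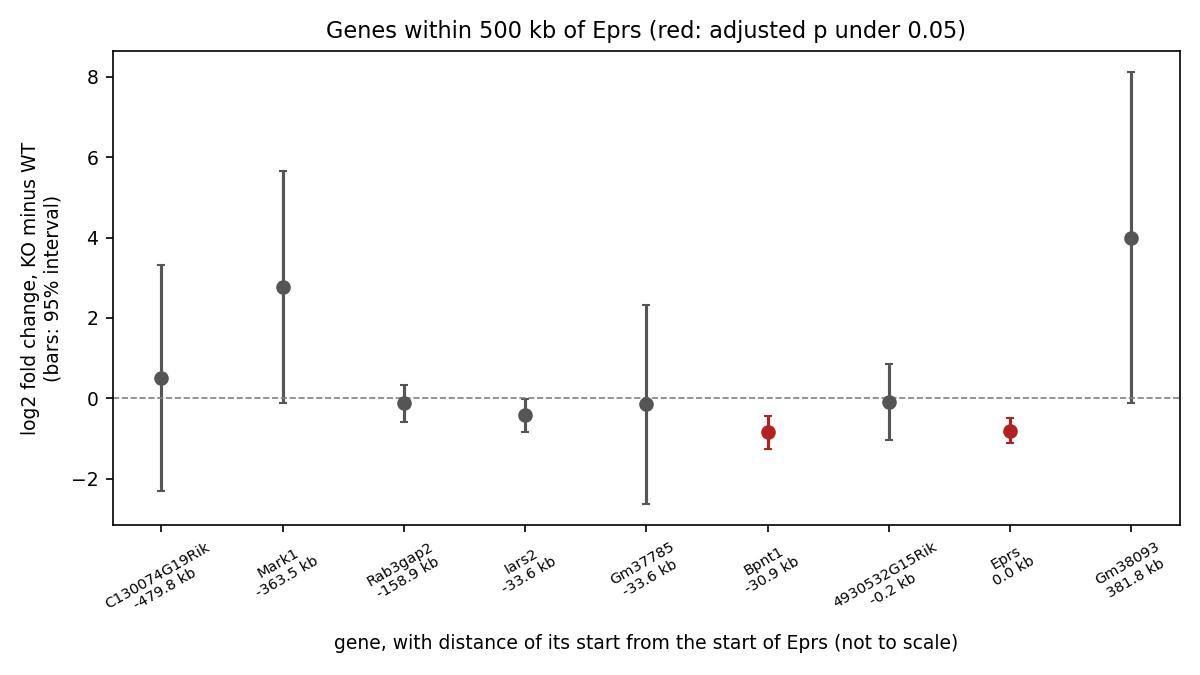
Log2 fold change (y axis, KO minus WT, 95% intervals) of the 9 genes with an adjusted p whose start lies within 500 kb of that of Eprs, in order along the chromosome, with the distance of each start below its name. Eprs and Bpnt1, in red, are the 2 genes past an adjusted p of 0.05 before centring, at -0.81 and -0.85. The region was chosen for Eprs, and 0.552% of all genes tested passed.

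The genes that act beside the synthetases gave no calls. Of all genes tested, 0.099% were called lower and 0.453% higher, so lists of this length would hold few calls or none. None of 14 charging partners and proofreading genes passed, with a median of -0.079. Osgep, part of the complex that modifies tRNAs reading codons that begin with A, had their smallest p, at -0.49 ± 0.25 (adjusted p = 0.372) per the authors' deposited table. Of 39 tRNA processing, modification and export genes tested, 0 passed, and the tRNA methyltransferases Trmt1 (-0.66 ± 0.26, adjusted p = 0.183) and Nsun2 (-0.44 ± 0.20, 0.269) led in the authors' deposited table. None of 9 cytosolic elongation and termination factors passed, all 9 were below 0, and Eef1a1, which carries charged tRNA to the ribosome, was at -0.34 ± 0.13 (adjusted p = 0.181) per the authors' deposited table. On the mitochondrial side 0 of 10 translation factors passed (median -0.11), with Tufm, the mitochondrial counterpart of Eef1a1, at -0.37 ± 0.22 (adjusted p = 0.468) per the authors' deposited table. Likewise 0 of 76 mitochondrial ribosomal protein genes passed, with a median of -0.20 and 68 below 0. Mrps24 had their smallest p, at -0.53 ± 0.29, and the most abundant, Mrpl32, stood at -0.14 ± 0.21 in the authors' deposited table. Unadjusted p under 0.05 occurred for 2 tRNA processing genes and 3 elongation factors, all lower, and for 0 genes of the other 3 lists. Of all genes tested, 3.95% were lower at that p and 46% had a log2 value below 0. At a baseMean of at least 5000, as for those 3 factors, the shares were 34.2% and 89.9%. From 200 to 1000, as for Trmt1, they were 4.21% and 77.4%. From 1000 to 2000, as for Nsun2, they were 14.6% and 93.8%. Centred on abundant genes, the medians of charging partners (0.17), tRNA processing (0.049) and mitochondrial translation factors (0.14) lay above 0.

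No listed gene of the amino acid response passed an adjusted p under 0.05. With 0.099% of all genes tested called lower and 0.453% higher, lists of this length would hold few calls or none. Of 10 sensors and factors tested, 0 passed and 5 were below 0, with a median of -0.034. At an unadjusted p under 0.05, 1 was lower, Gcn1l1. From a baseMean of 1000 to 2000, where Gcn1l1 lies, 14.6% of genes were lower at that p. In the authors' deposited table Eif2ak4 (GCN2) was at -0.26 ± 0.36, its activator Gcn1l1 at -0.42 ± 0.18 (adjusted p = 0.249) and Atf4 at 0.038 ± 0.16 (adjusted p = 0.949), Atf4 having a baseMean of 3583. The stress factor Ddit3 was at 0.34 ± 0.33 in the authors' deposited table, and its gene overlaps the end of Mars by 68 bases on the opposite strand. Of 29 target genes, 0 passed and 16 were below 0, with a median of -0.082. Ppp1r15a, a phosphatase subunit that reverses the signal and the most abundant target, was at -0.12 ± 0.15 in the authors' deposited table. Asparagine synthetase, Asns, was at 0.0086 ± 0.54 and Sesn2, which restrains growth signalling, at 0.51 ± 0.36 in the authors' deposited table. The serine synthesis enzyme Phgdh stood at -0.58 ± 0.24 (adjusted p = 0.222) and the glutamine transporter Slc1a5 at -0.48 ± 0.19 (0.190) in the authors' deposited table. At an unadjusted p under 0.05, 2 targets were lower, Phgdh and Slc1a5, and 2 were higher, Cth and Vldlr. Of all genes tested, 3.95% were lower and 9.62% higher at that p. The share lower was 4.21% from a baseMean of 200 to 1000, as for Phgdh, and 28.1% from 2000 to 5000, as for Slc1a5.

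The libraries carried the markers of their label: the 12 ILC2 genes had a median baseMean of 10870, and all were below 0 with a median of -0.33. Genes of like baseMean had a median of -0.26, and 7 of the 12 lay below such genes. In bulk samples, fewer cells of a type and less RNA per cell cannot be told apart. Genes listed as markers of other cells were also detected. Summed implied means went from 7661 in WT to 13219 in KO for 7 lung epithelial genes, from 3868 to 6721 for 6 fibroblast genes and from 2553 to 3209 for 6 endothelial genes. Log2 values were below 0 for 1, 0 and 1 of these genes in turn. Their median log2 values were 0.73, 0.74 and 0.42, with median SEs of 1.00, 0.96 and 0.44, and 0 of them were called. Next to genes of like baseMean, 0 of the genes in these lists lay below. At an unadjusted p under 0.05, 2 epithelial, 0 fibroblast and 1 endothelial genes were higher and 0 were lower. The shares over all genes tested were 9.62% higher and 3.95% lower. The median SEs are of single genes and do not measure the error of a sum. A difference between genotypes in these sums is thus not resolved and was not tested. For 9 T cell genes the sum went from 7707 to 5584, with 6 of the 8 tested below 0. Most of it lay in Trbc1 (3401 to 2475), Trbc2 (2820 to 2230) and Cd3g (1271 to 654). Implied means of Trac (124 to 104), Cd3e (59.5 to 44.0) and Cd3d (18.2 to 18.0) were far lower. Cd4 (8.17 to 19.4), Cd8b1 (4.82 to 30.5) and Cd8a (0.145 to 7.54) had higher implied means in KO. The sum is thus not a measure of T cell number, and which cells gave these transcripts was not tested. For 7 macrophage and monocyte genes the sum went from 23758 to 20956, but only Ccr2 (14937 to 11009) was below 0 and the list's median was 0.34. For 7 B and plasma cell genes it went from 5263 to 5568, with 2 below 0 and a median of 0.59. Of the markers, 1 gene, Cd3g, was called, as lower, at -0.96 ± 0.24 (adjusted p = 0.0292) per the authors' deposited table, and centred on abundant genes its adjusted p was 0.103. The share called lower was 0.099% of all genes tested. No marker had a baseMean of 0, and the lowest was Cd8a at 3.84. Their part in the values of the synthetases was not tested.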

How the data were processed

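Lung ILC2 RNA from 2 WT and 2 KO pools was made into full-length cDNA with the SMART-Seq HT kit and into libraries with a TruePrep kit, per the labels' protocols. The submitters' processing notes list HISAT2, Cufflinks and mm10 and assign them no role. The counter, the strand setting and any filters were not given in the sources used here. Per the file headers, the authors deposited baseMean (a signal, the mean normalized count), a log2 fold change with its SE, its p-value with and without adjustment, and the test statistic, a score, under headings of a DESeq2 results table. The 8 columns of single libraries match no sample label and were not used, so depth per library is unknown here and the planned refit was not made.

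The sign was turned to KO minus WT. Genotype means follow from baseMean and fold change, both genotypes weighted equally. Intervals are normal 95% intervals from the deposited SE. Centred p-values are 2-sided normal ones from the centred value over that SE, adjusted again over the genes tested. The adjusted p covers 19193 genes with a baseMean of at least 6.71. Medians, pairs, lengths and word matches (50 bases) were computed in Python 3.11.15 with pandas 2.3.3, numpy 2.4.6 and scipy 1.17.1. Centring and adjustment were tested on simulated data with the same shift for every gene. In the real data the shift varied with abundance, which that simulation does not cover. GENCODE M21 held 38388 of the identifiers. The members and gene lists were chosen with earlier results of these data known. The rule for naming covered all members, genes within 500 kb of Eprs, head-to-head partners, Nrp1 and, of each list, its calls (or, with none, its lowest p) plus its most abundant gene. Not all of these are described in the text. Several genes near Eprs, several partners and most markers are left out, among them Il1rl1, Krt18 and Tie1, which had the lowest p of their lists. Promoter records of 9 members and protein sequences were not used here, and the promoter matches of 1 member are not reported here. Eif2ak4, Ddit3, Asns, Sesn2, Phgdh, Cth, Vldlr, Cd3d, Cd3e, Cd4, Cd8a, Cd8b1, Trac, Trbc2, Rn18s-rs5 and mt-Rnr2 were named after their values were seen. Alternatives were centring, the filter, protein-coding genes alone, the threshold, leaving out genes, and the length used.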

Additional observations from a re-analysis of the deposited data

How the results depend on the processing

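No paired analysis was possible because the columns of single libraries match no sample, and for the same reason refits, and fits without a replicate, were not run. Eprs kept its call without a filter, at an adjusted p under 0.1, with genes under a baseMean of 50 removed, and when only protein-coding genes were adjusted. Since Eprs was chosen from this comparison, these calls are description and not support. Centred on abundant genes, which adds 0.25 to each log2 value, Eprs lost it (adjusted p = 0.0509), which left 0 members called lower, and 25 of the 39 stayed below 0. The cytosolic median then became -0.049 and the mitochondrial -0.031. Relative to genes of like baseMean, chosen after seeing the data like the settings without Lars2, the cytosolic median was -0.067. Centring turned 12 members: Aars (0.090), Gars (0.034), Iars (0.024), Lars (0.13), Nars (0.023), Rars (0.11), Yars (0.10), Ears2 (0.059), Hars2 (0.026), Lars2 (0.20), Rars2 (0.25) and Aimp1 (0.072). It also turned the medians of charging partners (0.17), tRNA processing (0.049), mitochondrial translation factors (0.14), sensors and factors (0.22) and response targets (0.17), and without a filter that of sensors and factors was 0.038. The ratio of Eprs to the other cytosolic enzymes per kb was 8.30 with the longest transcript and 7.82 with coding length, against 4.39 with all exons. Beyond what centring adds by construction, the cause was not tested. With 2 pools per genotype, the width of the intervals limits what could be seen: for the median mitochondrial enzyme, a log2 difference under 0.76 was within its error.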

Other observations

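Of the 39 genes, 11 start within 1 kb of the start of a protein-coding gene on the other strand, an arrangement in which neighbours can share a promoter region. Hars and Hars2, the cytosolic and mitochondrial histidine enzymes, form such a pair with each other, with starts 197 bases apart. In the authors' deposited table they stood at -0.35 ± 0.26 and -0.23 ± 0.28, a gap of 0.12 with a combined SE of 0.38. Sars2 starts 172 bases from Mrps12, which encodes a mitochondrial ribosomal protein, and the authors' deposited table gives -0.75 ± 0.41 and -0.52 ± 0.36. Rars2 and Orc3, an origin recognition subunit, have starts 13 bases apart and stood at -0.0034 ± 0.45 and -0.22 ± 0.21 in the authors' deposited table. Ears2 and Ubfd1 were at -0.19 ± 0.40 and -0.48 ± 0.25, and Kars and Terf2ip, a telomere protein gene, at -0.29 ± 0.19 and 0.11 ± 0.35, in the authors' deposited table. No partner in these pairs had an adjusted p under 0.05, and 0.552% of all genes tested did.

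Shared sequence limits some members more than others. Of the 39 genes, 14 shared no 50-base word with the transcripts of another gene and 9 shared more than 5% of theirs. The highest shares were those of Aimp2 (26.7%, nearly all with Eif2ak1 on the opposite strand), Iars2 (22.7%) and Aars (13.8%, mostly with Exosc6 on the same strand). Vars shared none.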
